A study of Mus musculus with 6 samples.

Results

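The genes described here encode the proteins of the cytosolic ribosome in EMT6, a mouse mammary carcinoma cell line. They were chosen by name as protein-coding genes whose symbol is Rpl or Rps followed by a number, together with Rplp0, Rplp1, Rplp2 and Rpsa, and without kinase genes of the Rps6k family, -ps genes and pseudogenes. The rule took 86 of the 53465 genes in the count table. Of these, 77 were core subunit genes (46 of the large and 31 of the small subunit), 8 were paralogs or retrogenes of core genes, and 1, Rps19bp1, carries the lettering but encodes a nucleolar protein that binds Rps19 and is no subunit. The rule used no measured value.

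To examine what exposure to a PD-L1 antibody does to tumor cells outside the animal, EMT6 cells were cultured for more than 4 weeks with 0.5 μg/ml of either an isotype control antibody (PVITRO, labelled Parental, variant EMT6, 3 libraries) or anti-PD-L1 (PTRVITRO, labelled anti-PD-L1 Resistant, variant EMT6 PDR, 3 libraries). Both groups grew in the same serum-supplemented medium, with no immune cells named as added, and polyadenylated RNA was sequenced. The study treats its replicates as technical where it does not say otherwise, and neither it nor the labels place these libraries in separate cultures. SDs and p-values therefore measure the spread between these libraries, which may be technical, and not that between cultures. Libraries held about 17757000 to 32427000 counts. The upper limit that a count of 0 allows, 3 counts, corresponded to 0.0925 to 0.169 per 1000000 counts of the library, which covers counting error only. CPM are counts per 1000000 of the library size after the filter on low counts and upper quartile scaling. Markers of a mammary carcinoma line were present in part. Krt8 (1031 to 1128 CPM), Krt18 (480 to 568 CPM) and Vim (1840 to 1972 CPM) were high in all libraries, whereas the epithelial adhesion genes Epcam (1.24 to 2.41 CPM) and Cdh1 (0 to 0.0413 CPM) were low or near 0. In 3 markers of this list the groups did not overlap. Krt18 (480 to 506 CPM in PVITRO, 523 to 568 in PTRVITRO) and Epcam (1.24 to 1.80 and 2.15 to 2.41) had the higher values in PTRVITRO and Krt14 (8.49 to 9.24 and 6.67 to 7.66) the lower, with edgeR adjusted p-values of 0.139, 0.392 and 0.347. Of leukocyte markers, Ptprc had 0 counts in every library and Cd3e and Itgam at most 1, whereas Cd68, a lysosomal protein of macrophages, had 11.3 to 13.2 CPM with overlapping groups. Lum and Hbb-bs had 0 counts in every library, and the 3 endothelial markers summed to 0.0617 to 0.257 CPM. The fibroblast proteoglycan gene Dcn had 35.8 to 46.9 CPM in PVITRO and 23.8 to 33.2 CPM in PTRVITRO, with an adjusted p of 0.0919 by edgeR's quasi-likelihood test, and Pdgfra, a receptor of fibroblasts, 7.64 to 9.76 and 8.08 to 9.85 CPM (log2 fold change 0.10, adjusted p of 0.803 by edgeR). The 3 fibroblast markers, of which Lum was at 0, summed to 43.6 to 54.5 CPM in PVITRO and 33.6 to 41.3 CPM in PTRVITRO, most of it from Dcn, and the part of these markers in the results was not tested. Among all libraries, PVITRO replicate 1 had the highest and PVITRO replicate 2 the lowest share of counts on ribosomal protein genes, so results are also given without either.

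As background, each ribosome joins a small subunit, which holds the messenger RNA and reads its codons, to a large subunit, which forms peptide bonds. Nearly every subunit protein is present in a single copy per ribosome and is made from a single gene, and the mRNAs of these genes are known to be abundant and to vary together. Mammalian ribosomal protein mRNAs begin with a short run of pyrimidines, the 5′ terminal oligopyrimidine (TOP) motif, through which mTOR signaling and the RNA-binding protein Larp1 control how much of each mRNA is translated and stored. Poly(A) RNA sequencing measures the mRNA level and not its translation.

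The annotated transcription starts were read for this motif, and a minority of the core genes had it there. RefSeq promoter sequences (GRCm38.p6) were matched for 66 of the 86 genes, and 30 bases were read for each, 15 before the start and 15 from it, on the strand of the gene. Below are the windows of those genes that had the smallest p-values in either direction and an entry that could be shown, with the longest unbroken run of C and T in capitals.

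Rpl27 (chr11:101442230-101442259, plus strand): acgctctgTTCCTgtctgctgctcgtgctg

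Rpl13 (chr8:123102335-123102364, plus strand): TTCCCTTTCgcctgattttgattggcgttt

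Rpl35 (chr2:39005117-39005146, minus strand): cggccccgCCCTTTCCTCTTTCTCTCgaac

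Rpl22l1 (chr3:28805493-28805522, plus strand): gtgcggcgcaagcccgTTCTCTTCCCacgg

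Rps24 (chr14:24490738-24490767, plus strand): tccggcgccgtagccatcatggtgagTCTC

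Rpl36al (chr12:69184053-69184082, minus strand): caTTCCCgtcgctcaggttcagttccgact

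Rpl26 (chr11:68901551-68901580, plus strand): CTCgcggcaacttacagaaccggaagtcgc

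Rpl15 (chr14:18270972-18271001, minus strand): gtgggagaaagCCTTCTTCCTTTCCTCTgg

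Rpl35 and Rpl15 carried runs of 18 and 17 pyrimidines across the start, Rpl22l1 a run of 10 just inside it, and Rpl26 no run longer than 3 in the window. Over the 57 core genes with an entry, the longest run had a median of 6 bases (range 2 to 21), against 4 over 20428 genes. A C at the annotated start followed directly by 4 bases that were each C or T was present in 12 of the 57 (21.1%) and in 2.37% of all genes, and in 0 of 69 genes of the mitochondrial ribosome. A run of 5 or more pyrimidines reaching within 2 bases of the start was present in 22 of the 57 (38.6%) and in 21.9% of all genes. These shares describe the annotated starts, which may differ from those used in EMT6 cells. Some also differ between annotations. The Rpl27 window ends at 101442259, before the start of the gene at 101442298 in the annotation used for gene positions. The Rps24 window begins at 24490738, whereas that annotation starts the gene at 24487125. Windows of this kind may miss the start, so the shares are uncertain.

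Ribosomal protein mRNAs were among the most abundant of the cells. Per kilobase of the shortest annotated principal mRNA, the 77 core genes had a median level of 888 CPM per kilobase, against 8.51 over all 14217 genes tested, and 65 of the 77 lay within 2-fold of the core median. Rplp1, an acidic stalk protein that helps recruit elongation factors, was the highest at 3531 ± 151 (SD, n = 3) CPM per kilobase in PVITRO and 3440 ± 67.5 in PTRVITRO. It was followed by Rpl41 (the smallest ribosomal protein), Rps12, Rpl10 (a late-joining protein near the catalytic center) and Rpl8, at means over the 6 libraries of 2211, 2120, 1958 and 1886 CPM per kilobase. Rplp1 was above every other member in all 6 libraries. Rpl41 (2010 to 2360) and Rps12 (2035 to 2165) overlapped, as did Rpl10 (1876 to 2006) and Rpl8 (1824 to 2000), and the order within these pairs did not hold beyond the spread.

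The lowest tested member was the non-ribosomal Rps19bp1 at 88.8 CPM per kilobase. The lowest core gene was Rpl26, whose product lies near the exit tunnel and also binds p53 mRNA, at 143 to 158 CPM per kilobase in PVITRO and 155 to 173 in PTRVITRO. The paralog Rpl7l1 (158), Rpl29 (199) and the retrogene Rps27rt (201) came next, and Rpl26 and Rpl7l1 overlapped, as did Rpl29 and Rps27rt. Levels of this kind depend on the length taken. Rps20, at 210.5 CPM per kilobase, was divided by an annotated mRNA of 3706 bases, while Rps15a has principal transcripts of 640 and 5179 bases, Rpl22 of 474 and 2051 bases and Rpl18 of 679 and 2989 bases. The order of levels was nearly the same in every library, with Spearman correlations between pairs of libraries from 0.994 to 0.999 over 83 genes that share those lengths.

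**Figure D1:**
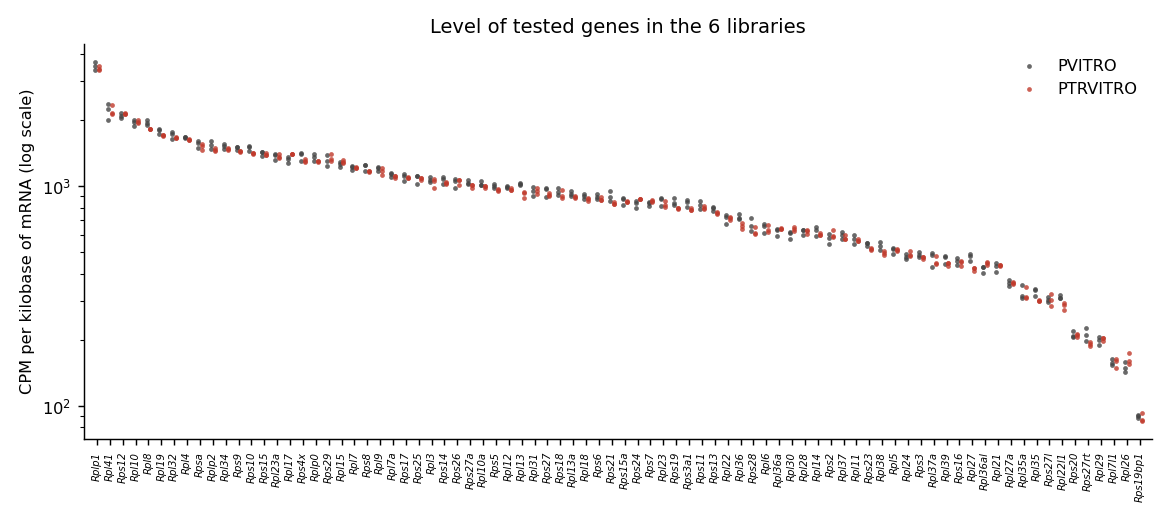
Level of the tested genes in CPM per kilobase of the shortest principal mRNA (log scale), ordered by mean; each dot is 1 library, grey for PVITRO and red for PTRVITRO. Rplp1 stands highest and Rps19bp1 lowest, and the dots of both groups lie close together for every gene.

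In the comparison of PTRVITRO with PVITRO, cytosolic ribosomal protein mRNAs differed little, and no member passed the test. The 3 members that the filter on low counts left untested are paralogs best known from testis or striated muscle: Rpl39l had 0 counts in every library, Rpl10l 1 count and Rpl3l 9 counts in all. Of the 83 members tested, 0 passed an adjusted p of 0.05 by edgeR's quasi-likelihood test with Benjamini-Hochberg adjustment over 14217 genes, of which 0.246% passed. The lowest adjusted p was 0.102. At an unadjusted p under 0.05, 15 members were lower in PTRVITRO (18.1%, against 6.13% of all genes tested) and 3 were higher (3.61%, against 5.26%). The log2 fold change was below 0 for 59 of the 83 (71.1%, against 51.5%), with a median of -0.040 against -0.004 over all genes and a range from -0.18 to 0.12. In 25 members every PTRVITRO library lay below every PVITRO library (30.1%, against 9.33%) and in 6 above it (7.23%, against 8.27%). The 95% intervals of all 83 fold changes lay within 25% of no difference, from 0.834-fold at the lowest bound to 1.18-fold at the highest, and those of 53 lay within 10%. limma-voom also gave 0 members past the threshold, where 0.218% of all genes passed. DESeq2 gave 3, among them Rpl13 and Rpl27, all lower in PTRVITRO, where 0.946% of all genes passed. In bulk RNA, fewer cells that express a gene and less of its mRNA per cell cannot be told apart.

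**Figure D2:**
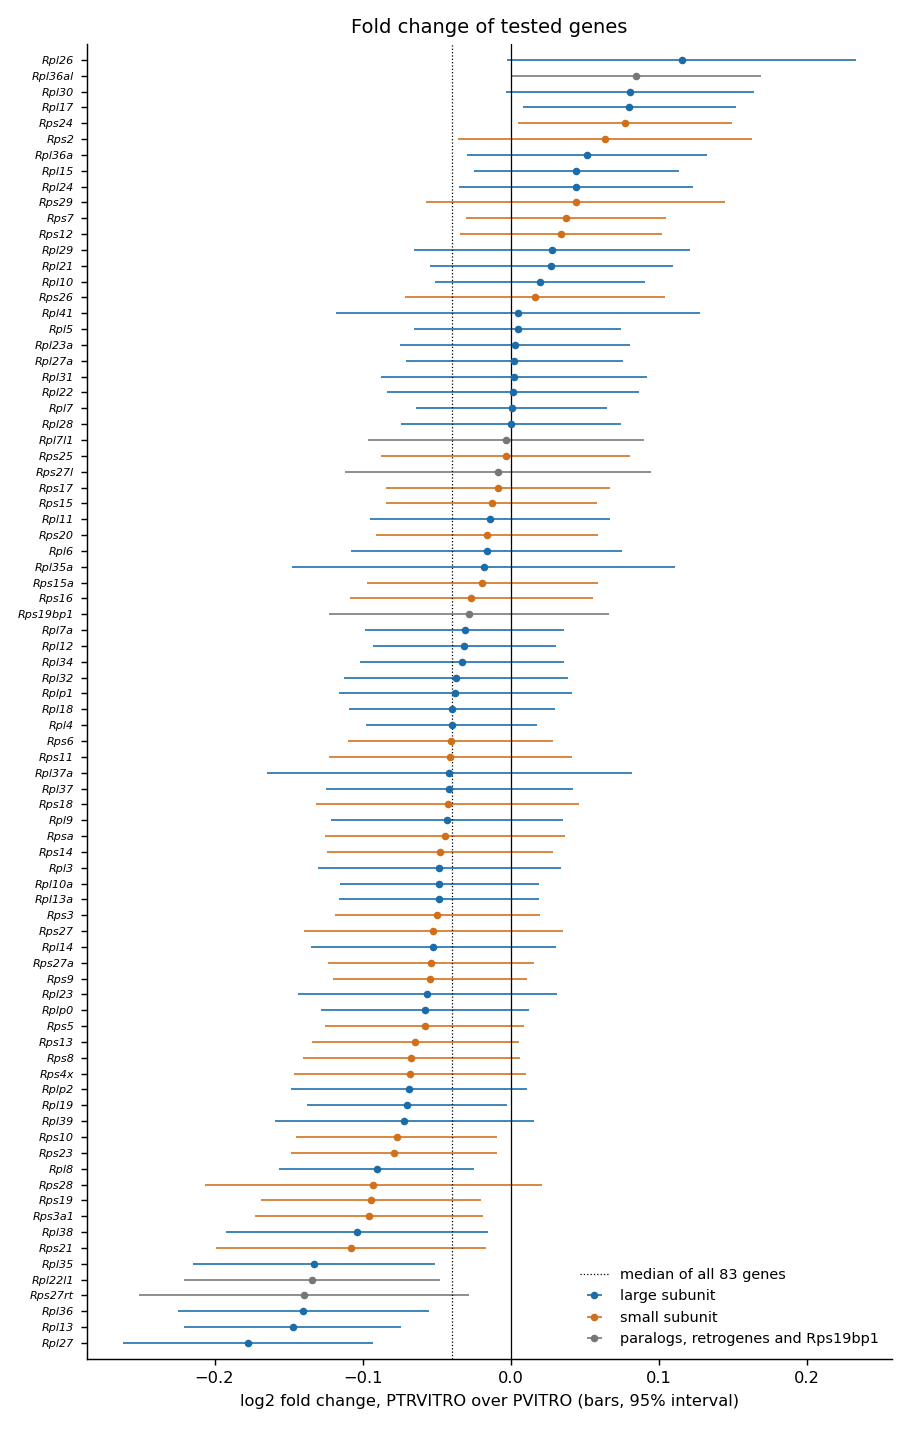
Log2 fold change of PTRVITRO over PVITRO for the tested genes, ordered by value, with 95% intervals; blue is the large subunit, orange the small subunit and grey the paralogs, retrogenes and Rps19bp1, and the dotted line is the median of all 83 (-0.040). Most points lie left of 0, from -0.18 (Rpl27) to 0.12 (Rpl26).

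Among large subunit genes, the smallest p-values belonged to genes that were lower in PTRVITRO. Rpl27 (ENSMUSG00000063316.13, GRCm38 chromosome 11, 101442298 to 101445529, plus strand), a protein of the solvent side of the large subunit, had 303, 279 and 295 CPM in the PVITRO libraries and 262, 253 and 260.5 CPM in the PTRVITRO libraries. The groups did not overlap, and the means were 292 ± 12.1 and 258 ± 4.47 CPM (SD, n = 3 each). The log2 fold change was -0.18 (SE 0.038) with an adjusted p of 0.102 by edgeR's quasi-likelihood test. Rpl27 has near-identical pseudogenes that held 52.0% of the summed counts, and with these added the log2 fold change was -0.11 with an adjusted p of 0.275. Its adjusted p ranged from 0.00613 to 0.275 over the other settings. With each library left out it ranged from 0.0298 without PVITRO replicate 2 to 0.433 without PTRVITRO replicate 2.

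Rpl13 (ENSMUSG00000000740.12, chromosome 8, 123102350 to 123105244, plus strand), a protein of the large subunit surface, had 805, 787 and 796 CPM in PVITRO and 730, 691 and 736 CPM in PTRVITRO. All 3 PTRVITRO values were below all 3 PVITRO values, with PTRVITRO replicate 2 the lowest. On the log2 scale the difference was -0.15 (SE 0.033), with an edgeR adjusted p of 0.123. With the replicate number as a block, 1 member passed, and it was lower in PTRVITRO, while 0.478% of all genes passed in that fit.

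Also among the lowest fold changes were those of Rpl36 and Rpl35, the latter a protein at the rim of the tunnel through which the new peptide leaves. Rpl36 had 288, 270 and 275 CPM in PVITRO and 244, 253 and 260.0 CPM in PTRVITRO, a difference of -0.14 on the log2 scale with an adjusted p of 0.195 by edgeR. Rpl35 had 322, 298 and 317 CPM in PVITRO and 284, 284 and 287 CPM in PTRVITRO, a difference of -0.13 on the log2 scale with an adjusted p of 0.204. Neither gene's groups overlapped. For Rpl35, however, 64.3% of the summed counts lay on near-identical copies, and with these added the log2 fold change was -0.043 with an adjusted p of 0.709 by edgeR.

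Toward higher values in PTRVITRO, differences were smaller. Rpl17, a protein at the rim of the exit tunnel, had 1056, 986 and 1036 CPM in PVITRO and 1088, 1081 and 1083 CPM in PTRVITRO, a difference of 0.08 on the log2 scale (SE 0.033) with an adjusted p of 0.382 by edgeR. Rps24, a small subunit protein whose gene is mutated in some patients with Diamond-Blackfan anemia, had 1358, 1282 and 1375 CPM in PVITRO and 1413, 1412 and 1411 CPM in PTRVITRO, a difference of 0.08 on the log2 scale (SE 0.033) with an adjusted p of 0.404 by edgeR. In both genes the PTRVITRO libraries lay close together and above all PVITRO libraries, of which replicate 2 was the lowest. Rpl30 (log2 fold change 0.08), the paralog Rpl36al (0.08) and its parent Rpl36a (0.05) likewise did not overlap between groups, with edgeR adjusted p-values of 0.453, 0.437 and 0.640. For Rpl30, 56.9% of the summed counts lay on near-identical copies, and its log2 fold change was 0.031 with these added and 0.034 with a trend on GC content and length removed. Rpl26 had the largest positive log2 fold change (0.12, SE 0.053, edgeR adjusted p = 0.445), but its groups overlapped at 75.2 to 83.3 and 81.5 to 91.1 CPM. With its near-identical copies added, which held 90.9% of the summed counts, that value was -0.0001. Rpl15 (981 to 1032 and 1026 to 1059 CPM, log2 fold change 0.04) overlapped as well, and its log2 fold change was 0.029 with copies added and 0.0085 with that trend removed.

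By position in the ribosome, the lower values were spread over both subunits. Of the 46 core large subunit genes, 29 had a log2 fold change below 0 (63.0%, against 51.5% of all genes tested, median -0.035). At an unadjusted p under 0.05, 8 were lower (17.4%, against 6.13%) and 1 higher (2.17%, against 5.26%). Of the 31 core small subunit genes, 25 were below 0 (80.6%, median -0.044), and at an unadjusted p under 0.05, 5 were lower (16.1%) and 1 higher (3.23%). The ratio of large to small subunit counts was 1.55 ± 0.0084 in PVITRO and 1.55 ± 0.00333 in PTRVITRO (SD, n = 3 each). The stalk genes Rplp0, Rplp1 and Rplp2, which form the platform for translation factors, differed by -0.058, -0.037 and -0.069 on the log2 scale, with edgeR adjusted p-values from 0.515 to 0.735. With each library left out, these log2 fold changes ranged from -0.083 to -0.028, from -0.067 to -0.0012 and from -0.098 to -0.035. For Rplp0, often used as a reference gene in quantitative PCR, the PVITRO libraries had 1905, 1775 and 1842 CPM and the PTRVITRO libraries 1774, 1771 and 1758 CPM. PVITRO replicate 2 lay barely above the highest PTRVITRO library, and the other PVITRO libraries further above it.

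Genes with known roles outside peptide synthesis differed little between the groups. Rpl5 and Rpl11, which together with 5S ribosomal RNA bind Mdm2 and so restrain p53 turnover when ribosome assembly is disturbed, had log2 fold changes of 0.005 (1009 to 1071 CPM in PVITRO, 1039 to 1056 in PTRVITRO) and -0.014 (457 to 498 and 470 to 480 CPM). Their edgeR adjusted p-values were 0.970 and 0.925, and the groups overlapped. Rpl13a, part of a complex that silences inflammatory mRNAs after interferon gamma in human myeloid cells, had 950 to 995 CPM in PVITRO and 925 to 949 CPM in PTRVITRO, a difference of -0.049 on the log2 scale with 0.590 as edgeR's adjusted p. Rps3, which also takes part in NF-kB signaling and DNA repair, differed by -0.050 on the log2 scale (adjusted p of 0.590 by edgeR), and Rps6, the substrate of the S6 kinases, by -0.041 (edgeR adjusted p = 0.670). Rps19, the gene most often mutated in Diamond-Blackfan anemia, had 557, 521 and 532 CPM in PVITRO and 501, 505 and 502 CPM in PTRVITRO. These groups did not overlap and differed by -0.09 on the log2 scale, with an adjusted p of 0.306 by edgeR. Rps14, lost in the 5q- syndrome in humans, Rpsa, which also occurs as a laminin receptor, Rpl3, Rpl10 and Rps27a, a fusion of ubiquitin with a small subunit protein, had log2 fold changes of -0.048, -0.044, -0.048, 0.020 and -0.054. None of these had an edgeR adjusted p under 0.557. With each library left out, the log2 fold change ranged from -0.075 to -0.019 for Rps14 and from -0.075 to -0.015 for Rpsa. It ranged from -0.069 to -0.011 for Rpl3 and from -0.066 to -0.031 for Rps27a.

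The members' levels differed between PVITRO libraries by more than between the group means. The share of all counts on the 86 genes was 6.18, 5.82 and 6.06% in the PVITRO libraries and 5.95, 5.94 and 5.93% in the PTRVITRO libraries. The means were 6.02 ± 0.184% and 5.94 ± 0.0108% (SD, n = 3 each), a ratio of 0.986, and the PTRVITRO values fell inside the PVITRO range. For each tested member, the deviation of log2 CPM in a library from its mean over the 6 libraries was also taken. The median deviation over the 83 members was 0.056, -0.038 and 0.031 in the PVITRO libraries and -0.009, -0.023 and -0.019 in the PTRVITRO libraries, while the same median over other genes with a mean count of at least 1000 stayed between -0.0072 and 0.0051. PVITRO replicate 1 held the highest value of 48 of the 83 members, and PVITRO replicate 2 the lowest value of 35. PVITRO replicate 2 therefore lay below all 3 PTRVITRO libraries by this measure, and PVITRO replicates 1 and 3 above them. The members moved together across the 6 libraries: the median correlation of their log2 CPM was 0.544 over 3403 pairs of genes, 81.3% of pairs were positive, and the first principal component held 56.5% of their variance. These correlations rest on 6 libraries and share the depth and scaling of each. No like value for other genes is given, so they do not show that moving together is particular to these genes.

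**Figure D3:**
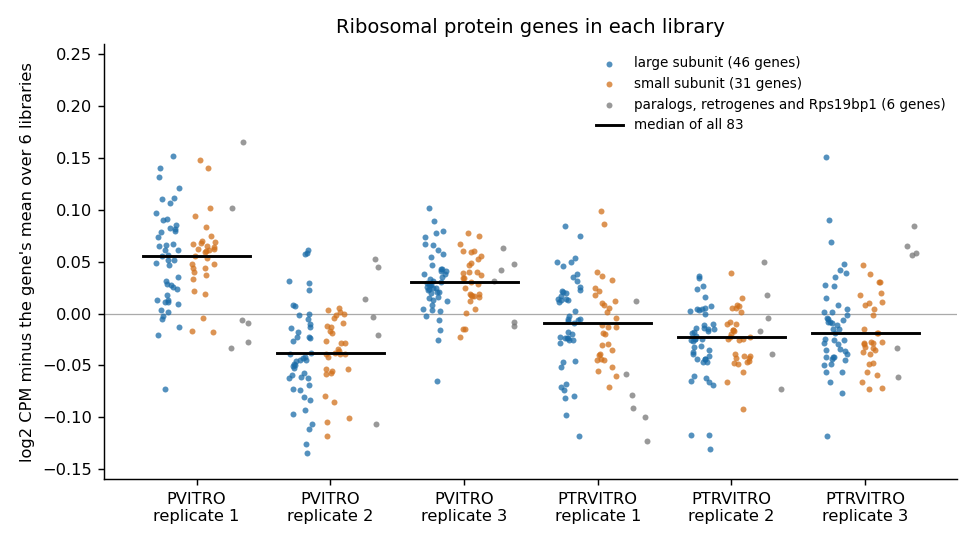
Each dot is 1 tested gene in 1 library, as log2 CPM minus the mean of that gene over the 6 libraries; blue is the large subunit, orange the small subunit and grey the paralogs, retrogenes and Rps19bp1, and the black line is the median over all 83. The medians of PVITRO replicates 1 (0.056) and 3 (0.031) lie above the PTRVITRO libraries and that of replicate 2 (-0.038) below them.

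The counts of members below 0.05 changed with the library left out. Without PVITRO replicate 2, 31 members had an unadjusted p under 0.05, all lower in PTRVITRO (37.3%, against 7.56% of all genes in the same fit that were lower and 6.31% that were higher). In that fit 13 in place of 24 members had a log2 fold change above 0, against 46.6% in place of 48.5% of all genes. Rpl27 passed the threshold there, as did 0.448% of all genes. Without PVITRO replicate 1, 6 were lower (7.23%, against 4.15%) and 4 higher (4.82%, against 4.84%). The share that was higher lay near that of all genes, and the share that was lower lay above it. The ratio of the members' share of counts was then 0.9998. Without PVITRO replicate 3, 10 were lower (12%, against 4.56%) and 5 higher (6.02%, against 4.58%). Without PTRVITRO replicate 1, 12 were lower (14.5%, against 6.91%) and 2 higher (2.41%, against 5.27%). Without PTRVITRO replicate 2 or 3, 8 were lower (9.64%, against 4.12 and 4.31%) and 0 higher (against 3.76 and 4.69%).

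Paralogs were set against their parent genes in each library, per kilobase of the shortest principal mRNA. Rpl22l1, which can replace Rpl22 in the ribosome and is known to be repressed by it, was 43.5, 45.8 and 42.8% of Rpl22 in PVITRO and 38.0, 42.2 and 40.0% in PTRVITRO. The PTRVITRO values were lower in 3 of 3 libraries, and the exact two-sided permutation test gave p = 0.1, the smallest that 3 against 3 libraries allow (adjusted p = 0.25 over 5 pairs). Rpl22l1 itself had 177, 171 and 171 CPM in PVITRO and 152, 163 and 158 CPM in PTRVITRO (log2 fold change -0.13, SE 0.039, edgeR adjusted p = 0.219), while Rpl22 had means of 338 CPM in both groups. Rpl36al was 67.8 ± 0.243% of Rpl36a in PVITRO and 69.4 ± 0.893% in PTRVITRO (SD, n = 3 each, exact permutation p = 0.1, adjusted p = 0.25), higher in all 3 PTRVITRO libraries by a small margin. Rps27l, a target of p53, stood at 32.1 ± 1.503% and 33.2 ± 2.41% of Rps27 (exact permutation p = 0.7), and Rpl7l1, a factor of ribosome assembly, at about 13% of Rpl7 in both groups (SD 0.657 and 0.582 percentage points, n = 3 each, exact permutation p = 1). These values overlapped between the groups.

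Rps27rt, a retrogene of Rps27, had 84.3, 74.1 and 78.5 CPM in PVITRO and 70.1, 71.5 and 73.4 CPM in PTRVITRO (log2 fold change -0.14, edgeR adjusted p = 0.310). Its mRNA is identical to that of Rps27 over 341 bases, so the division of reads between the pair is uncertain. Their sum was 406 ± 19.6 CPM in PVITRO and 387 ± 4.63 CPM in PTRVITRO (SD, n = 3 each), with a log2 ratio of -0.07 and an exact permutation p of 0.3. PVITRO replicate 2 (384 CPM) lay inside the PTRVITRO range of 383 to 391.8 CPM.

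Division of reads matters for most of these genes, because ribosomal protein mRNAs have left many processed pseudogenes in the genome. When copies were defined by 95% transcript identity across a stretch of 200 bases or more, 75 of the 86 members had 571 annotated copies outside the list. The copies held 23.2 to 23.5% of the counts of members and copies together in the 6 libraries. Shares differed between members. Rpl26 had 90.9% of its summed counts on copies, Rpl35a 84.5%, Rpl29 67.0%, Rpl35 64.3% and Rpl30 56.9%, whereas the median over members was 16.02%. The level of Rpl26, the lowest of the core genes, thus depends on how reads were divided between it and its copies. When each member was summed with its copies and the table was fitted again, 0 of 83 members passed by edgeR, 12 were lower (14.5%, against 5.99% of all genes in that fit) and 2 higher (2.41%, against 5.34%) at an unadjusted p under 0.05, the lowest adjusted p was 0.0554 (Rpl13), Rpl26 went from 0.12 to -0.0001 and Rpl29 from 0.028 to -0.049 on the log2 scale. Of the 178 copies that could be tested on their own, 0 passed by edgeR, and at an unadjusted p under 0.05 36 were lower (20.2%, against 6.13% of all genes tested) and 10 higher (5.62%, against 5.26%) in PTRVITRO. The smallest p-values, named after their values were seen, belonged to Gm12918, a copy of Rpl13 (324 ± 12.8 CPM in PVITRO and 277 ± 9.45 CPM in PTRVITRO, log2 fold change -0.22, edgeR adjusted p = 0.0531), and to Rps3a2, a copy of Rps3a1 (299 ± 12.2 and 259 ± 11.2 CPM, log2 fold change -0.21, edgeR adjusted p = 0.0899). For Gm12918 and Rps3a2, as for Rpl13 and Rps3a1, all PTRVITRO libraries lay below all PVITRO libraries. Reads that match a member and its copies alike are divided between them, so the copies are not measured separately from the members. Rpl35a-ps2 and Rpl35a-ps3, for example, had equal values in every library. The copies therefore add no separate evidence.

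**Figure D4:**
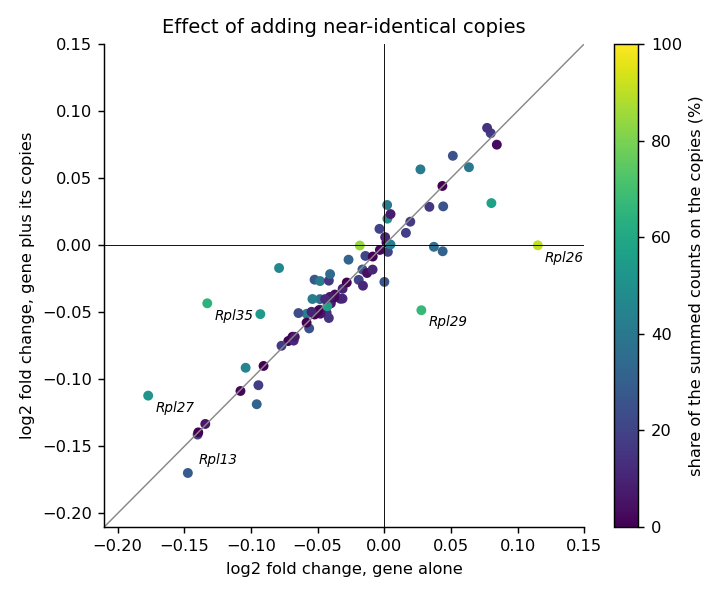
Log2 fold change of PTRVITRO over PVITRO for the tested genes alone (horizontal) and summed with their near-identical copies (vertical), colored by the share of the summed counts on the copies in percent; the diagonal marks equal values. Most genes lie near the diagonal. Rpl26, Rpl35, Rpl29, Rpl27, Rps23, Rpl30, Rpl24 and Rps28, with 30.9 to 90.9% on copies, lie farther off it, whereas Rpl35a, with 84.5%, lies near it.

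The fold changes also varied with base composition. GC content was taken from the longest transcript of each gene. Over the 77 core genes, its Spearman correlation with the log2 fold change was -0.32, against -0.19 over all genes tested and -0.29 over genes with mean counts of 1000 or more. The 26 core genes of lowest GC content (39.1 to 49.0%) had a median log2 fold change of -0.0076, with 13 below and 13 above 0. The 26 of highest GC content (52.9 to 62.4%) had a median of -0.050, with 22 below and 4 above 0. After a trend on GC content and length was removed from each library, the correlation was -0.0028, and these medians were -0.029 and -0.034. Of the genes described above, Rplp1 (-0.014), Rps14 (-0.023) and Rps6 (-0.0069) then had log2 fold changes nearer to 0, and Rps27a (-0.087) one farther from it. Whether base composition has a part in what remained was not tested. mRNA length and level per kilobase had Spearman correlations of -0.011 and -0.019 with the log2 fold change. Core genes with a C and 4 pyrimidines at the annotated start had a median log2 fold change of -0.052 (10 of 12 below 0), and the other core genes with an entry a median of -0.033 (31 of 45 below 0).

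**Figure D5:**
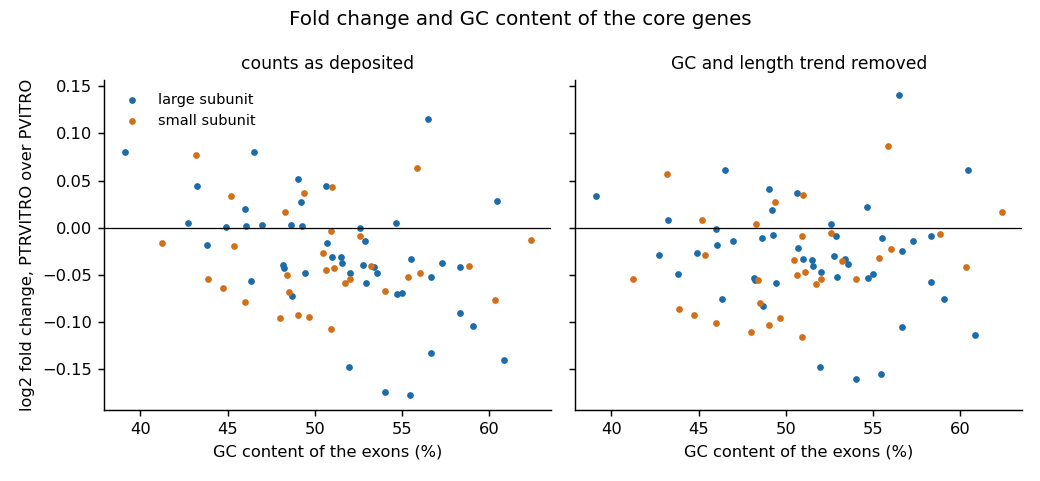
Log2 fold change of PTRVITRO over PVITRO against GC content (%) for the 77 core genes, from the deposited counts (left) and after a GC and length trend was removed from each library (right). The GC content is that of the longest transcript of each gene, although the axis names the exons. Blue is the large and orange the small subunit. The downward slope on the left (Spearman correlation -0.32) is absent on the right (-0.0028).

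Other genes of the translation machinery were read from the same fit. Fau and Rack1, proteins of the cytosolic small subunit whose symbols fall outside the naming rule, were lower in PTRVITRO without passing the test. Fau, a small subunit protein fused to a ubiquitin-like domain, had 568, 537 and 546 CPM in PVITRO and 520, 505 and 506 CPM in PTRVITRO (log2 fold change -0.11, edgeR adjusted p = 0.238). Rack1, a scaffold on the small subunit, had 1562, 1498 and 1517 CPM in PVITRO and 1409, 1434 and 1437 CPM in PTRVITRO (-0.10, edgeR adjusted p = 0.234). In both genes the groups did not overlap, PVITRO replicate 2 included.

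The next list held 14 elongation factors and other mRNAs known for a TOP motif, which was not read here at their starts. Of these, 10 were below 0 (median -0.028) and 4 had an unadjusted p under 0.05, all lower (28.6%, against 6.13% of all genes tested). Those 4 were Eef1a1 and Eef2, which bring aminoacyl-tRNA to the ribosome and move it along the mRNA, Tpt1 and Eif4b, with log2 fold changes of -0.088, -0.094, -0.087 and -0.078. Genes of the mitochondrial ribosome, which lie in the nucleus and are not known for this motif, were divided evenly, with 40 of 78 below 0, 4 in each direction at an unadjusted p under 0.05 and a median of -0.0023. Ribosome assembly factors, a list that also includes the member Rps19bp1, had 28 of 47 below 0, 3 in each direction at an unadjusted p under 0.05 and a median of -0.0068. RNA polymerase I genes had 8 of 19 below 0 and a median of 0.020, and 0 of these had an unadjusted p under 0.05. Among 11 tested regulators of TOP mRNAs, 9 were below 0. Of these, Rptor, the defining subunit of mTOR complex 1, had 69.4, 74.3 and 67.4 CPM in PVITRO and 60.9, 62.8 and 62.2 CPM in PTRVITRO, a difference of -0.18 on the log2 scale with 0.159 as edgeR's adjusted p. Of 9 tested snoRNA host RNAs, which are known for a TOP motif (not read here) and encode no ribosomal protein, 7 were above 0 with a median of 0.030. No gene of these lists passed the threshold in the fit used throughout, and 22 of their 180 tested genes had an unadjusted p under 0.05 by edgeR, near the 11.4% of all genes tested. Of these, 15 were lower (8.33%, against 6.13%) and 7 higher (3.89%, against 5.26%).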

How the data were processed

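RNA from 3 PVITRO and 3 PTRVITRO libraries had been made into stranded poly(A) libraries and, per the labels and the study's methods, checked with FastQC 0.11.5, aligned with STAR 2.6.0a to GRCm38 and quantified with RSEM 1.3.1. The deposited values are RSEM expected counts per gene, not normalized, as the authors made them. Members and gene lists were chosen with earlier results of these data known. Genes were named from the identifiers with supplied name tables and GENCODE annotation of GRCm38 (53360 of 53465 matched).

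Expected counts were rounded, filtered (edgeR filterByExpr, minimum count 10, total 15), scaled by upper quartile and fitted with edgeR 4.0.16 in R 4.3.3 (quasi-likelihood F test, group only, 6 libraries), with Benjamini-Hochberg adjustment over 14217 genes. CPM use library totals. Copies were found with BLAST 2.17.0. Ratios of paralogs were tested by exact permutation over libraries. Named were all members past the threshold, the 6 smallest p-values in each direction, the 5 highest and 5 lowest levels, a fixed set of genes with known roles, and paralogs with their parents. The shortest principal mRNA was chosen as length after seeing the data. Alternatives were TMM or no scaling, DESeq2 1.42.0, limma-voom 3.58.1, other filters, a replicate block, a GC and length correction (natural splines, 5 df), copies added and leaving out each library. The fit was tested on simulated data. Some genes are counted in the totals but not reported here or drawn in the plots that name genes.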

Additional observations from a re-analysis of the deposited data

How the results depend on the processing

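No member was called higher in PTRVITRO under any alternative, and 0 were called lower under TMM scaling, no scaling, limma-voom, the filter of 10 counts in every library, the GC and length correction and the addition of copies. Called lower were 3 members with DESeq2 and 3 with no filter (Rpl13 and Rpl27 among them each time). A replicate block gave 1, a replicate block plus GC and length correction 1, and leaving out each library 0 to 1. Of all genes, in either direction, 0.946% were called with DESeq2 and 1.58% with no filter. The block called 0.478% of all genes, the block plus correction 0.528%, and the fits with each library left out 0.0549 to 0.448%. With no filter, 1 gene of the other lists, Rptor, was also called. The causes were not tested. The median log2 fold change of members stayed between -0.045 and -0.027 over these settings and between -0.056 and -0.016 with each library left out, and the ratio of their share of counts between 0.970 and 0.9998. Members above 0 numbered 16 to 28 over the settings and 13 to 33 with each library left out. The alternative filter gives no other share of counts, so it was not run for that ratio. Same-numbered libraries of the 2 groups had correlations of deviations of 0.109, 0.095 and -0.056, and the libraries numbered 3 did not correlate best with each other, so the numbers were not taken to pair them. The block moved the members with an unadjusted p under 0.05 from 18 to 23, of which 18 were lower (21.7%) and 5 higher (6.02%). The share of all genes under 0.05 is not given for that fit, so the move cannot be set against it.

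Some named members changed sign, and apart from Rpl26 their log2 fold changes were near 0. They were Rpl26 (-0.000102) and Rpl29 (-0.049) with copies added, Rpl41 (-0.00045), Rpl5 (-0.00065), Rpl22 (-0.0036) and Rpl7 (-0.0047) with 10 counts in every library, Rpl7l1 (0.0093) and Rps27l (0.0040) with no scaling and Rpl7l1 (0.000797) with DESeq2. With the GC and length correction they were Rpl10 (-0.0018), Rpl5 (-0.029), Rpl22 (-0.0079) and Rpl7 (-0.027), and with the block added -0.0018, -0.029, -0.0075 and -0.026. With each library left out, ranges crossing 0 were -0.058 to 0.061 (Rpl41), -0.0049 to 0.044 (Rpl10), -0.027 to 0.036 (Rpl7l1), -0.0050 to 0.059 (Rpl29), -0.019 to 0.025 (Rpl5), -0.046 to 0.021 (Rpl11), -0.034 to 0.033 (Rpl22), -0.048 to 0.036 (Rps27l) and -0.018 to 0.015 (Rpl7). Over all fits, 56 of 83 members kept their sign, 47 lower and 9 higher. At this depth the filter on low counts removed Rpl3l, Rpl10l and Rpl39l. With no filter 85 members were tested, all but Rpl39l, which had 0 counts.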
